A study of Mus musculus with 5 samples.

Results

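Msln and the mesothelial genes Muc16, Wt1, Upk1b, Upk3b and Lrrn4 were followed in mouse eye tumors and normal uvea to see whether Msln was high alone or together with other genes of mesothelium. The genes were listed with an earlier look at these libraries in view, in which Msln was far higher in the tumors. Of the 6 genes, 5 were matched by symbol to loci of the deposited table, which lists 24768 loci. Muc16 was matched neither by its symbol nor by a RefSeq synonym and was not analysed here. All 5 passed the filter on low counts that left 15241 named loci for testing, but Msln, Wt1 and Lrrn4 passed it through the tumor libraries alone. The tumor over wild-type values of the 5 genes are therefore given as a description, without p-values.

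The tumor group had 3 libraries made from tumors that grew in the eyes of adult AAV5-Cre;Lats1/2 fl/fl mice. Their Lats1 and Lats2 genes are flanked by loxP sites, and Cre recombinase was delivered by an adeno-associated virus of serotype 5. The wild-type group had 2 libraries from the uvea of adult wild-type mice, without virus or floxed alleles as far as the labels say, so the groups differ in virus, Cre and genotype together as well as in tissue. Lats1 and Lats2 encode kinases of the Hippo pathway that restrain the coactivators YAP and TAZ, partners of the TEAD transcription factors. Sequencing depth was 12687703 to 14368272 estimated fragments in tumors and 12799991 to 13911934 in wild type. Whether each library is a different animal is not stated in the labels. The p-values thus rest on the spread between these libraries, which need not be that between animals. The wild-type libraries differed far less (chi-square per degree of freedom 5.56) than pairs of tumor libraries (108 to 139). The spread of the wild-type pair may be technical. Neither the virus promoter nor the cells that recombined are stated, and the tumors are whole tissue.

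Mesothelium is the flat epithelial sheet of mesodermal origin that lines the pleural, pericardial and peritoneal cavities. Msln encodes mesothelin, a surface glycoprotein held by a lipid anchor, and Muc16 encodes the large membrane mucin that binds it. Wt1 is a zinc finger transcription factor of embryonic and adult mesothelium and of kidney podocytes. Upk1b, a tetraspanin, and Upk3b are members of the uroplakin families, first known from bladder urothelium, and Lrrn4 encodes a leucine-rich repeat membrane protein. In human cancer cells, an upstream element of the mesothelin gene that holds a TEAD-binding motif has been described.

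The targeted genes and the marker lists set the frame. Lats1 levels in tumor libraries 1, 2 and 3 were 3.43, 3.90 and 2.94 FPKM (fragments per kilobase of transcript, per unit of sequencing depth), against 7.55 and 8.86 FPKM in wild type (edgeR adjusted p = 0.0115). Lats2 was at 12.6, 17.0 and 14.3 FPKM in the tumors and 20.05 and 20.22 FPKM in wild type (edgeR adjusted p = 0.0577). Both are levels of the whole gene and do not single out the floxed exons. The 7 melanocyte markers summed to 10.6 to 79.0 FPKM in tumors and to 6470 to 6700 FPKM in wild type. Their log2 fold changes ran from -9.77 (SE 0.54) for Pmel to -1.77 (SE 1.18) for Sox10. Sox10 was at 18.5, 49.1 and 1.73 FPKM in the tumors and at 84.3 and 79.3 FPKM in wild type, so the sum does not speak for each marker. Tissue labelled as uvea also held the corneal keratin transcript Krt12, at 248 to 258 FPKM in wild type and 0.298 to 18.3 FPKM in tumors. Tumor library 1 stood apart for skeletal muscle, whose 7 markers summed to 8542 FPKM there and to 496 to 625 FPKM in each of the other libraries.

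The 5 measured genes lay on both sides of wild type. Msln, Wt1 and Lrrn4 were higher in all 3 tumor libraries than in both wild-type libraries, whereas Upk1b and Upk3b were lower in all 3. Groups did not overlap at any of the 5, as was the case at 69.5% of all tested loci. In edgeR 3 of the 5 were past an adjusted p of 0.05, beside 34.1% of all tested loci (18.7% higher and 15.4% lower). Because these genes were chosen on the same contrast, this count is no test of them and nothing is read from it.

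**Figure D1:**
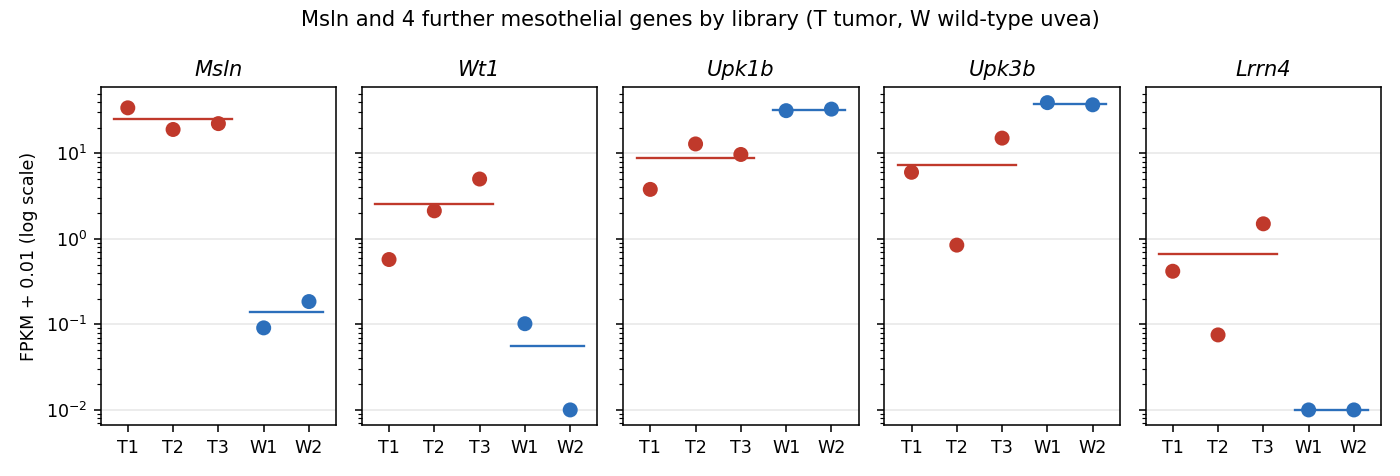
FPKM plus 0.01 on a log scale for the 5 measured genes in tumor libraries (T1 to T3) and wild-type libraries (W1, W2); lines are group means. Msln lay between 19.0 and 34.0 FPKM in the tumors and below 0.2 FPKM in wild type, while Upk1b and Upk3b were higher in both wild-type libraries than in any tumor.

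Msln lies on chromosome 17 from 25748613 to 25754372 (mm10). Its level was 34.0, 19.0 and 22.2 FPKM in tumor libraries 1, 2 and 3, against 0.0810 and 0.175 FPKM in wild type. The tumors were thus all high and within 1.79-fold of each other, and wild-type uvea held a trace. The fragments behind these levels were 918, 499 and 560 in the tumors and 2 and 4 in wild type. Msln averaged 25.1 ± 7.90 FPKM in tumors (SD, n = 3) and 0.128 ± 0.0663 FPKM in wild type (SD, n = 2). On the log2 scale the difference was 7.66 (SE 0.53), the 32nd highest of 15241 tested loci. The ratio of scaled fragments was 212, with a 95% interval of 97.4 to 579 that covers counting error only (exact binomial). With 1 library left out in turn the log2 fold change ranged over 7.17 to 8.24, and both ends came from leaving out a wild-type library. In bulk tissue, more cells that carry a transcript and more transcript per cell cannot be told apart.

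Wt1, the transcription factor, was at 0.563, 2.12 and 4.99 FPKM in the tumors (libraries 1, 2 and 3), against 0.0918 and 0 FPKM in wild type. It rested on 17, 62 and 144 fragments in the tumors and on 2 and 0 in wild type. The tumors differed by 8.87-fold between library 3, the highest, and library 1, the lowest, and all lay above wild type. Its group means were 2.56 ± 2.25 FPKM in tumors (SD, n = 3) and 0.0459 ± 0.0649 FPKM in wild type (SD, n = 2). The ratio of scaled fragments was 71.8 (95% exact interval 19.7 to 597, counting error only), and the wide interval comes from the 2 wild-type fragments. On the log2 scale the difference was 6.04 (SE 1.55), and 5.07 to 9.19 with 1 library left out in turn. The row of Wt1 spans chromosome 2 from 105076538 to 105173614, a span shared with the antisense gene Wt1os, which is listed as AI314831. AI314831 was at 0, 0 and 0.0734 FPKM in the tumors and at 0 in both wild-type libraries.

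Lrrn4, the leucine-rich repeat gene, lies on chromosome 2 from 132868516 to 132880862. It was at 0.408, 0.0653 and 1.49 FPKM in the tumors (libraries 1, 2 and 3), and at 0 in both wild-type libraries. Its fragments numbered 19, 3 and 65 in the tumors. Tumor library 3 was thus the highest, as for Wt1, and tumor library 2 was barely above 0. Against the floor of 3 fragments per wild-type library, the mean of the tumors was at least 9.53-fold higher. Without tumor library 3 this limit was 3.47, and without library 1 or 2 it was 11.3 or 13.8. Its level in the tumors, 0.654 ± 0.743 FPKM (SD, n = 3), was the lowest of the 5 genes, and 10.1% of tested loci had a lower tumor mean.

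Upk1b, the tetraspanin, lies on chromosome 16 from 38773142 to 38800307. It was at 3.77, 12.9 and 9.68 FPKM in the tumors (libraries 1, 2 and 3), against 31.5 and 32.8 FPKM in wild type. All tumors were lower than wild type, and tumor library 1 was lowest. Its means were 8.77 ± 4.61 FPKM in tumors (SD, n = 3) and 32.2 ± 0.948 FPKM in wild type (SD, n = 2). The log2 fold change was -1.85 (SE 0.50), and -2.29 to -1.49 with 1 library left out in turn. Wild type therefore held 3.67 times the tumor mean.

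Upk3b, its relative from the other uroplakin branch, lies on chromosome 5 from 136038406 to 136046195. It was at 5.99, 0.835 and 15.0 FPKM in the tumors (libraries 1, 2 and 3), against 39.1 and 36.9 FPKM in wild type. The tumors were all lower, but they differed among themselves by 18.0-fold, with library 2 the lowest and library 3 the highest. Its means were 7.29 ± 7.19 FPKM in tumors (SD, n = 3) and 38.0 ± 1.58 FPKM in wild type (SD, n = 2). The log2 fold change was -2.35 (SE 1.03), and -3.37 to -1.86 with 1 library left out in turn. Upk3b and Lrrn4 had the same order among the tumors, 3 above 1 above 2, while Upk1b had the order 2, 3, 1 and Msln the order 1, 3, 2.

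The RefSeq promoter table (GRCm38.p6) held 3 of the 6 genes, namely Lrrn4, Upk3b and Muc16. Lrrn4 and Upk3b are shown because they alone had both a promoter entry and a locus in the deposited table. They share the order of levels among the tumors and lie on opposite sides of wild type. The motif was looked for because TEAD factors act downstream of the targeted kinases. Capitals mark the letters GGAATG or its reverse complement CATTCC, the core of the motif that TEAD factors bind. Both windows are written 5′ to 3′ on the strand of the gene and stop where the transcribed span of the table begins. The Lrrn4 window is chr2:132880863-132881112 (minus strand), and the Upk3b window is chr5:136038246-136038405 (plus strand).
Lrrn4: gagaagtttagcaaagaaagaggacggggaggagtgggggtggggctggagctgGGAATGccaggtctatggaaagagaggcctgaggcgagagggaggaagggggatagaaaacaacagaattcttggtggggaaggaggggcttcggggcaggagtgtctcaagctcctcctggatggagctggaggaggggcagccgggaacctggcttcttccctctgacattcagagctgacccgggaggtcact
Upk3b: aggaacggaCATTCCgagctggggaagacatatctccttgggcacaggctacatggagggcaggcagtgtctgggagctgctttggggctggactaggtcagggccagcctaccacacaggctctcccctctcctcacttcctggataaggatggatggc
Each window held 1 match, which began 196 bases before the end of the window for Lrrn4 and 151 bases before it for Upk3b. Of 32851 RefSeq windows, 12.6% held either word in the 250 bases before the start and 8.66% in the 160 bases farthest from it. A match is a description of the letters and not of binding.

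The order of levels differed between the groups. In tumors Msln led, and its lowest library (19.0 FPKM) was above the highest value of every other member in any tumor (15.0 FPKM, Upk3b in library 3). The tumor ranges of Upk1b, Upk3b, Wt1 and Lrrn4 overlapped in turn. Within a library, Upk1b was below Upk3b in tumor libraries 1 and 3 and above it in library 2, and Upk3b was above Wt1 in libraries 1 and 3 and below it in library 2. Upk1b was above Wt1, and Wt1 above Lrrn4, in each of the 3 tumors. In wild type Upk3b was above Upk1b, both were far above Msln, and the values of Msln and Wt1 (0.0810 and 0.175 against 0.0918 and 0 FPKM) overlapped. The FPKM of Msln was 5.68, 22.7 and 1.48 times that of Upk3b in tumor libraries 1, 2 and 3. In wild type it was the other way round, with Upk3b at 483 and 211 times Msln.

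The spread among tumors was above the median of all loci for each of the 5 genes, and least so for Msln. The SD of log2 CPM (depth-scaled fragment counts) over the tumors was 0.45 for Msln, 0.89 for Upk1b, 1.52 for Wt1, 1.90 for Lrrn4 and 2.09 for Upk3b. Its median over all tested loci was 0.34 in tumors and 0.088 in wild type. For Upk3b, 96.1% of tested loci had a smaller SD over the tumors, and for Msln 60.8% did. Tumor library 3 was the highest tumor for Wt1, Lrrn4 and Upk3b, that is 3 of 5 genes, and it was the highest for 40.5% of all tested loci.

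Further mesothelial genes were called in both directions. Of 20 such genes besides the 6, 19 were tested. Of these 5 rose, 4 fell and 10 did not pass, with a median log2 fold change of -0.84 against 0.048 over all tested loci. Of all tested loci 18.7% rose and 15.4% fell. The genes that rose were Gata6, Slpi, Nkain4, Tbx18 and Rspo1, and those that fell were Krt18, Gpm6a, Ezr and Tmem151a. Without either wild-type library edgeR called 0 loci in all, with 4 rises and 4 falls of this list at an unadjusted p under 0.05, while DESeq2 still called 5 rises and 4 falls.

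Transcription factors of embryonic mesothelium were among the rises. Gata6, which encodes a zinc finger factor of mesoderm and endoderm, was at 9.32, 1.84 and 4.56 FPKM in the tumors (libraries 1, 2 and 3), against 0.0788 and 0.0850 FPKM in wild type (log2 fold change 6.06, SE 0.99, edgeR adjusted p = 0.0146). Tbx18, a T-box factor of the epicardium and ureter mesenchyme, was at 8.89, 4.15 and 18.5 FPKM in the tumors, against 0.698 and 0.681 FPKM in wild type (3.97, SE 0.76, edgeR adjusted p = 0.0202). Neither group pair overlapped, as was the case at 17 of the 19 tested genes of this list and at 69.5% of all tested loci. Gata4, a close relative of Gata6, was listed at 0 in all 5 libraries.

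Secreted and membrane proteins made up the other rises. Slpi, a secreted protease inhibitor, was at 82.1, 105 and 55.5 FPKM in the tumors, against 2.45 and 2.04 FPKM in wild type (log2 fold change 5.21, SE 0.40, edgeR adjusted p = 0.00435). Nkain4, a gene for a protein that interacts with the sodium pump, was at 63.8, 33.0 and 170 FPKM in the tumors, against 5.31 and 5.61 FPKM in wild type (4.07, SE 0.85, edgeR adjusted p = 0.0246). Rspo1, which encodes the Wnt agonist R-spondin 1, was at 4.87, 13.6 and 38.1 FPKM in the tumors, against 1.28 and 1.53 FPKM in wild type (3.79, SE 1.01, edgeR adjusted p = 0.0439). Nkain4, Tbx18 and Rspo1 were highest in tumor library 3, as Wt1, Lrrn4 and Upk3b were, the last of which was lower than wild type. Library 3 was the highest tumor for 6 of the 19 further mesothelial genes tested and for 40.5% of all tested loci. The Rspo1 call ended without tumor library 2 (edgeR adjusted p = 0.0549) and with limma on log2(FPKM + 1) (adjusted p = 0.0604, and 0.0724 without a filter).

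The 4 genes that fell encode a keratin, a cytoskeletal linker and a pair of membrane proteins. Krt18, a keratin of simple epithelia and of mesothelium, was at 30.7, 30.4 and 9.42 FPKM in the tumors, against 444 and 436 FPKM in wild type (log2 fold change -4.17, SE 0.57, edgeR adjusted p = 0.0103). Ezr, which encodes ezrin, the linker of membrane and actin in microvilli, was at 34.2, 71.8 and 39.0 FPKM in the tumors, against 249 and 272 FPKM in wild type (-2.37, SE 0.37, edgeR adjusted p = 0.0138). Gpm6a, a membrane glycoprotein gene also known from neurons, was at 2.44, 13.6 and 2.93 FPKM in the tumors and 92.3 and 106 FPKM in wild type (-3.91, SE 0.86, edgeR adjusted p = 0.028). Tmem151a, a membrane protein gene, had a log2 fold change of -2.06 (SE 0.23, edgeR adjusted p = 0.00757). Gpm6a lost its call in edgeR when tumor library 1 was left out (adjusted p = 0.0542) and also when library 3 was (adjusted p = 0.0504).

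Several classical markers of mesothelium did not pass in edgeR with all 5 libraries. Calb2, the calretinin gene used to mark mesothelium in pathology, was at 0.0574, 1.57 and 0.0612 FPKM in the tumors and 6.68 and 5.89 FPKM in wild type (log2 fold change -3.41, SE 1.37, edgeR adjusted p = 0.112). Bnc1, the basonuclin gene, was at 0.0630, 0.303 and 0.286 FPKM in the tumors and 1.13 and 0.953 FPKM in wild type (-2.21, SE 0.69, edgeR adjusted p = 0.0632). Krt8, the partner of Krt18, had a value of -2.57 (SE 0.77, edgeR adjusted p = 0.0564), and Pdpn, the podoplanin gene, one of -0.27 (SE 0.40, edgeR adjusted p = 0.623). Calb2, Bnc1 and Krt8 passed as falls in each limma fit with all 5 libraries (limma adjusted p = 0.0152 to 0.0482). They also passed with DESeq2 (adjusted p = 0.0486, 0.0168 and 0.00321), with which the list had 6 rises and 8 falls. The sixth rise was Cldn15, a tight junction gene (log2 fold change 2.28, adjusted p = 0.0464 with DESeq2 and 0.069 with edgeR). DESeq2 called 22.4% of its loci higher and 19.9% lower.

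**Figure D2:**
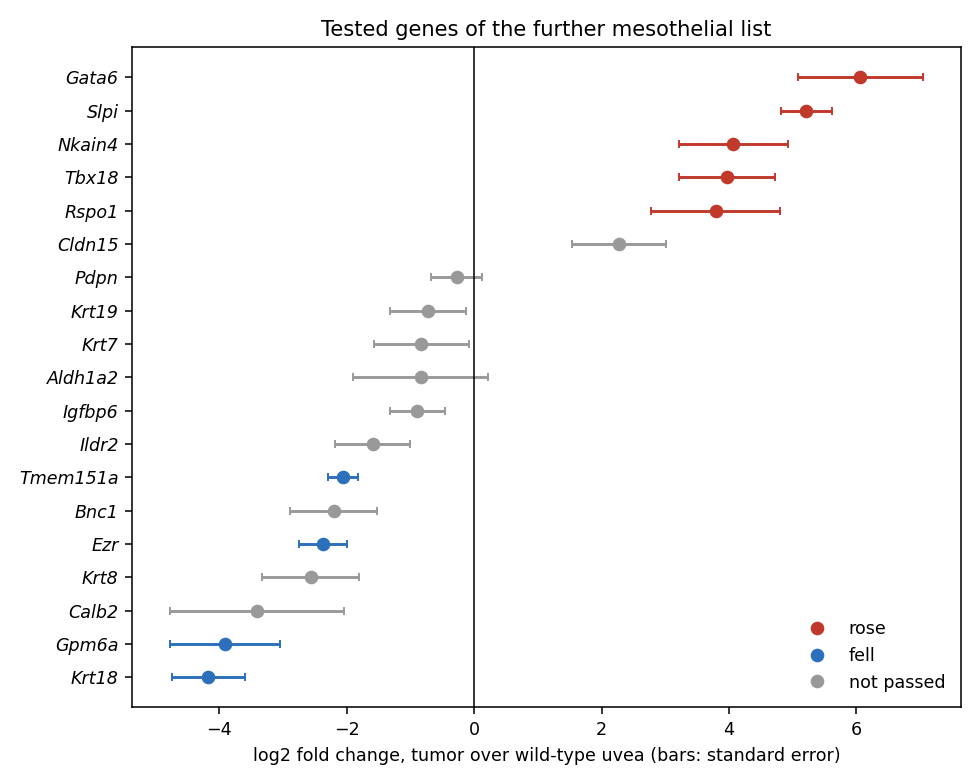
Log2 fold change of tumor over wild-type uvea for the 19 tested genes of the further mesothelial list, with standard errors; colour gives the call at an edgeR adjusted p under 0.05. Gata6, Slpi, Nkain4, Tbx18 and Rspo1 stand at 3.79 or above, and Krt18, Gpm6a, Ezr and Tmem151a at -2.06 or below.

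Relatives of the members were tested where their counts allowed. The mesothelin-related genes Mslnl, Otoa (otoancorin) and Strc (stereocilin) were too low to test, and their summed level was 0 to 0.0416 FPKM in tumors and 0.0564 to 0.118 FPKM in wild type. Upk3a was listed at 0 throughout, Upk2 was at 0.316 FPKM in tumor library 1 and at 0 elsewhere, and Upk1a was at 4.40, 0.323 and 0.204 FPKM in the tumors and 0.203 and 0.0728 FPKM in wild type. Upk3bl, the uroplakin 3b-like gene, listed as 2310043J07Rik, was at 0.672, 25.7 and 1.16 FPKM in the tumors, against 162 and 145 FPKM in wild type. The log2 fold change, -4.22 (SE 1.57), missed the threshold in edgeR (adjusted p = 0.0947) and passed with DESeq2 (adjusted p = 0.00848) and in edgeR without tumor library 2 (adjusted p = 0.00314).

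Among the other membrane mucins, 5 were tested and 0 passed in edgeR, also 0 at an unadjusted p under 0.05 and 0 with DESeq2. Without tumor library 2, 3 of them fell in edgeR (Muc4, Muc20 and the Muc21 gene Gm9573). Falls over all loci numbered 2067 to 3112 in edgeR without 1 tumor library, and 15.4% of tested loci fell with all 5 libraries. The share that fell without tumor library 2 is not given here, so nothing is read from the 3 falls. Muc1, the best known of them, was at 23.4, 4.28 and 2.58 FPKM in the tumors and 6.08 and 5.65 FPKM in wild type. Muc4, an ocular surface mucin, was at 0.0468, 7.11 and 0.534 FPKM in the tumors and 8.21 and 9.11 FPKM in wild type. Of 4 LRRN relatives 0 passed in edgeR, 0 had an unadjusted p under 0.05 and 0 passed with DESeq2. Over all tested loci, 34.1% were called in edgeR in either direction, and DESeq2 called 22.4% of its loci higher and 19.9% lower. With 4 or 5 genes, nothing is read from a count of 0. Lrrn4cl, the Lrrn4 C-terminal-like gene, was the highest of them, at 31.2, 8.62 and 16.1 FPKM in the tumors and 9.005 and 9.46 FPKM in wild type.

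Of 12 partners and targets of Wt1, 7 were tested, and 2 rose, 2 fell and 3 did not pass, beside 18.7% and 15.4% of all tested loci. Podxl, the podocalyxin gene that Wt1 activates in podocytes, was at 18.1, 11.9 and 8.79 FPKM in the tumors, against 39.6 and 42.5 FPKM in wild type (log2 fold change -1.62, SE 0.33, edgeR adjusted p = 0.0234). Basp1, a corepressor of Wt1, fell by 1.07 on the log2 scale (SE 0.24, edgeR adjusted p = 0.0283). Cited2 and Wtip, which encode a transcriptional coactivator and a Wt1-interacting protein, rose by 1.17 (edgeR adjusted p = 0.0378) and 0.67 (edgeR adjusted p = 0.045). The Wtip call ended without any 1 of the tumor libraries (adjusted p = 0.0644 to 0.0744), that of Cited2 without library 3 (adjusted p = 0.0634) and that of Basp1 without library 1 (adjusted p = 0.0584). Nphs1 and Amhr2, among the further Wt1 targets, were below the filter, and Amhr2 stood at 0.202, 0.327 and 1.16 FPKM in the tumors and 0.0854 and 0 FPKM in wild type.

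Targets of YAP and TEAD were set beside Msln. Of 8 tested, 6 rose, 1 fell and 1 did not pass, beside 18.7% rising and 15.4% falling among all tested loci. Their median log2 fold change was 1.95, against 0.048 over all tested loci. Ankrd1, a repeat protein gene, was at 96.4, 69.4 and 62.0 FPKM in the tumors, against 0.382 and 0.154 FPKM in wild type, so its levels and order among the tumors (1 above 2 above 3) differed from those of Msln, which was lowest in library 2. Gadd45b, a stress response gene, was at 58.1, 63.7 and 65.0 FPKM in the tumors, against 8.22 and 6.59 FPKM in wild type (log2 fold change 3.12, SE 0.18, edgeR adjusted p = 0.00304). Ctgf, a secreted matrix protein gene and a classical YAP target, rose by 1.53 (SE 0.28, edgeR adjusted p = 0.0184), and Cyr61, its relative, by 2.19 (SE 0.55, edgeR adjusted p = 0.0382). The other rises were Axl and Amotl2. Crim1, a membrane protein gene, was the target that fell (-2.20, SE 0.40, edgeR adjusted p = 0.0183). Jub, the Ajuba gene, did not pass (0.45, SE 0.42, edgeR adjusted p = 0.434).

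The loci nearest to Msln did not share its size of change. Within 50 kb there were 8 named neighbours, of which 6 were tested. Of these 1 rose, 2 fell and 3 did not pass, with a median of -0.46, and 34.1% of all tested loci were called in either direction. Mslnl, its related gene, lay 283 bases away and was at 0.0290, 0 and 0 FPKM in the tumors and 0.0614 and 0.0331 FPKM in wild type. Chtf18, a gene of DNA replication, rose by 1.55 (SE 0.33, edgeR adjusted p = 0.0262), and Haghl and the locus of Fam173a and Metrn had log2 fold changes of -0.88 (edgeR adjusted p = 0.0457) and -1.24 (edgeR adjusted p = 0.0287). Upk3bl lay 10920 bases from Upk3b, and both were lower in every tumor library than in wild type, but their highest tumors were library 2 and library 3. Some neighbours share a span in the table, and their reads cannot be told apart without a stated strand setting.

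**Figure D3:**
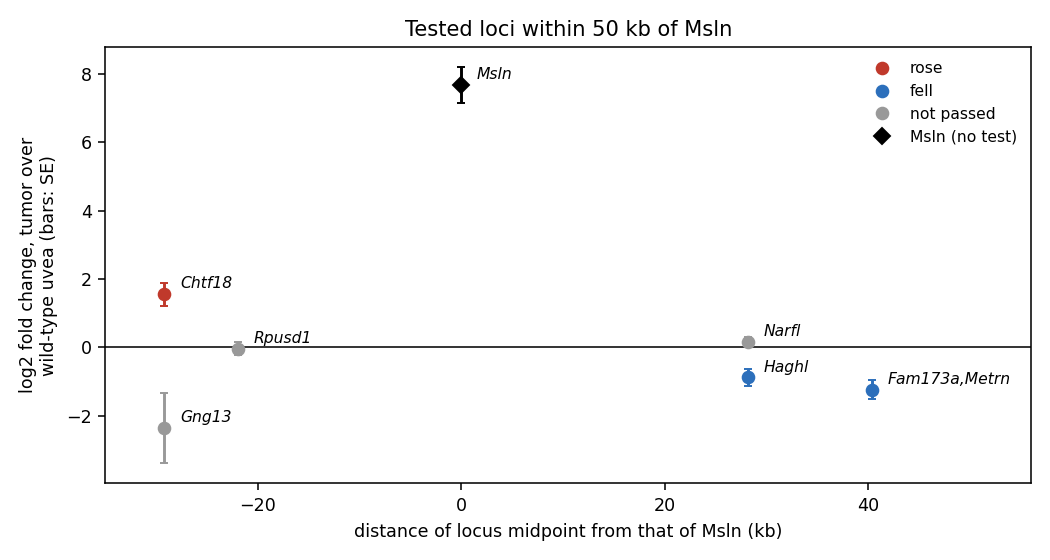
Log2 fold change of tumor over wild-type uvea (with SE) for Msln and the 6 tested loci within 50 kb, by distance between locus midpoints. Msln stands at 7.66 and the neighbours between -2.36 and 1.55.

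The loci whose profile over the 5 libraries was most like that of Msln were not on the mesothelial lists. Likeness was the root mean square difference of log2 CPM centred on each locus, over the 11950 loci that averaged 1 FPKM or more in tumors. Among the nearest were H28 (0.33), a minor histocompatibility antigen gene, Igj (0.47), the immunoglobulin joining chain gene, Gdpd3 (0.54), a phosphodiesterase gene, and Klra2 (0.64), a natural killer cell receptor gene whose reads are uncertain because of near-identical relatives. Igj was at 208, 98.0 and 67.5 FPKM in the tumors and 1.14 and 1.61 FPKM in wild type. Among the members, Wt1 lay at a distance of 1.85 from Msln, with 2.89% of the loci nearer, and Lrrn4 at 2.17, with 5.51% nearer. Upk1b and Upk3b were at 4.49 and 5.08, with 93.8% and 97.2% of loci nearer. These distances are mainly set by the difference between the groups and describe these 5 libraries.

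The sum of 1 marker list shared its order among the 3 tumors with some of these genes. The 16 ocular surface epithelium markers summed to 37.2, 1668 and 213 FPKM in tumor libraries 1, 2 and 3, against 1881 and 1919 FPKM in wild type. This is the order of Upk1b, Upk3bl and Muc4 among the tumors, but not that of Upk3b, which was lowest in library 2. It is also the order of 5 of the 19 further mesothelial genes tested, namely Gpm6a and Ezr, which fell, and Calb2, Bnc1 and Krt7, which did not pass, and of 13.4% of all tested loci. Not all of the ocular surface list had the order of its sum, since Elf3 and Trp63 had the order 2, 1, 3 and Slurp1 and Dsg1a the order 3, 2, 1. In the ocular surface list 0 genes rose and 2 of 16 fell (Dsg1a and Slurp1). Dsg1a, a desmosomal cadherin gene, was at 0 in tumor library 1. The 8 simple epithelium markers (9 loci) summed to 52.3, 64.3 and 22.4 FPKM in the tumors, against 54.2 and 52.1 FPKM in wild type. Of them Epcam alone rose (log2 fold change 2.04, SE 0.41, edgeR adjusted p = 0.0224). These counts stand beside 18.7% rising and 15.4% falling among all tested loci, and nothing is read from them. The part of these cell types in the results was not tested.

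Endothelial, fibroblast and macrophage markers were present in every library. The 7 endothelial markers summed to 176, 123 and 87.8 FPKM in tumor libraries 1, 2 and 3, against 210 and 202 in wild type. The 6 fibroblast markers summed to 2653, 1917 and 2973 FPKM in the tumors, against 1553 and 1738 FPKM in wild type, and 3 of them rose (Col1a1, Col3a1 and Thy1). The 6 macrophage markers found summed to 480, 371 and 879 FPKM in the tumors, against 143 and 154 FPKM in wild type, and 4 of them rose. Both counts of rises stand beside 18.7% of all tested loci. Fibroblast and macrophage sums had the order 3, 1, 2 among the tumors, which is also the order of Lrrn4, Upk3b, Nkain4 and Tbx18. Other orders were those of Wt1 and Rspo1 (3, 2, 1), Msln and Gata6 (1, 3, 2), Slpi (2, 1, 3) and Upk1b (2, 3, 1). The share of all loci with the order 3, 1, 2 was not counted, so nothing is read from these matches. Within the fibroblast list, Pdgfra, Col1a1 and Col3a1 had the order 3, 1, 2, whereas Dcn, Lum and Thy1 had the order 1, 2, 3. Tumor library 3 was the highest tumor for 40.5% of all tested loci. None of the markers of these lists was at 0 in any library. The part of these cell types was not tested.

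**Figure D4:**
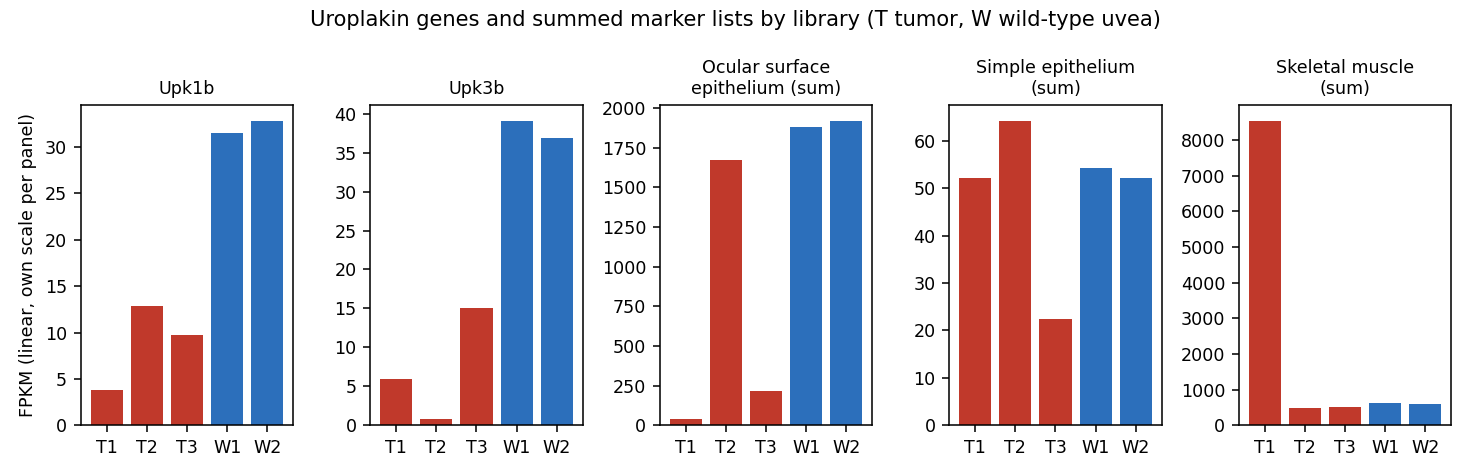
FPKM of Upk1b and Upk3b and summed FPKM of marker lists in tumor libraries (T1 to T3) and wild-type libraries (W1, W2), each panel on its own linear scale from 0. Tumor library 2, at 1668 FPKM for the ocular surface list, held the highest Upk1b and the lowest Upk3b of the tumors.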

How the data were processed

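RNA of 3 eye tumors and 2 samples of wild-type uvea was sequenced. Cuffdiff, Cufflinks 2.2.1, TopHat2 2.0.9 and the mm10 build are named in the submitters' processing notes. Neither the annotation nor the use of strand is given in the sources used here. The deposited table holds, per the file headers, unscaled estimated counts of fragments and FPKM values, which the authors scaled between libraries. Its condition names give the groups; libraries are numbered in the table's order.

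Estimated counts (98.6% to 98.7% within 0.01 of a whole number) were rounded. Loci without a gene name (1.52% to 4.37% of fragments) were left out. Replicate pairs differed by a chi-square per degree of freedom of 108 to 139 in tumors and 5.56 in wild type, more than counting error alone gives, and each library was counted as 1 sample. The 15241 loci kept by filterByExpr (minimum count 10) were tested in edgeR 4.0.16 (R 4.3.3) with TMM and the quasi-likelihood F-test over all 5 libraries, two-sided, with Benjamini-Hochberg adjustment; DESeq2 1.42.0 and limma 3.58.1 gave alternatives. Standard errors were derived from the log2 fold change and its F statistic. Likeness used a prior count of 2. The code was tested on simulated data. Counts of fragments are not molecules, so intervals and floors cover counting error only.

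The members and lists were chosen with earlier results of these data known. Named genes are the members, genes of the lists and the 5 loci most like Msln, of which 1, and 1 listed gene, are not reported here; neighbours within 50 kb were added after the files were seen. Symbols were also matched by RefSeq synonyms (GRCm38.p6).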

Additional observations from a re-analysis of the deposited data

How the results depend on the processing

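Each of the 5 measured members kept its direction in the fits that gave it a value. Lrrn4 had none without tumor library 1 or 3, where it was below the filter. The limits of its fold without 1 tumor library (3.47 to 13.8) were added after the data were seen. Count-based fits gave log2 fold changes of 7.66 to 7.69 for Msln, 6.005 to 6.18 for Wt1, 7.25 to 7.87 for Lrrn4, -1.89 to -1.82 for Upk1b and -2.40 to -2.35 for Upk3b. With limma on log2(FPKM + 1) or log2(FPKM + 0.1) they were 4.49 to 6.77, 1.56 to 3.82, 0.63 to 2.35, -2.03 to -1.90 and -3.11 to -2.72. The pseudocount shrinks folds of genes near 0, as Msln, Wt1 and Lrrn4 were in wild type. For Upk1b and Upk3b the limma values were instead larger in size than the count-based ones, and the reason was not tested. For Lrrn4 none of these values is a measured size, because both wild-type libraries held 0 fragments. Its limit of at least 9.53-fold stands instead. Falls among the further mesothelial genes, 4 in edgeR, numbered 8 with DESeq2 and 7 in each limma fit, and 3 to 7 without 1 tumor library. Falls among other uroplakins (0 in edgeR) numbered 1 with DESeq2 and in each limma fit, and falls among other membrane mucins (0 in edgeR) 1 in each limma fit. Without a filter 1 of the Wt1 partners and targets rose, against 2.

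Without 1 wild-type library edgeR called 0 loci (unadjusted p under 0.05 at 2006 to 2069 rises and 1990 to 2016 falls), and so 0 in every list, with the lone library assumed to vary like the tumors. DESeq2, an alternative chosen after the data were seen, then called 1605 to 1647 rises and 1189 to 1193 falls. Without 1 tumor library edgeR called 2398 to 3032 rises and 2067 to 3112 falls. Over all fits without 1 library, with edgeR or DESeq2, counts ran from 0 to 3352 rises and 0 to 3401 falls over all loci, 0 to 5 rises and 0 to 9 falls among further mesothelial genes, 0 to 2 rises and 0 to 3 falls among Wt1 partners and targets, 0 to 6 rises and 0 to 1 falls among YAP and TEAD targets, 0 to 3 falls among other mucins, 0 to 1 rises and 0 to 1 falls among other uroplakins, and 0 to 1 rises among LRRN relatives. The direction of 5 genes that did not pass turned. Wnt4 (0.45) was at -0.054 with limma on log2(FPKM + 0.1). With 1 library left out, log2 fold changes ran from -0.55 to 0.90 for Wnt4, from -0.72 to 1.28 for Muc1, from -0.065 to 0.37 for Lrrn3, from -0.058 to 0.70 for Jub and from -1.13 to 0.078 for Lrrn2. The turn came without tumor library 1 for Muc1, without tumor library 3 for Lrrn2 and without tumor library 2 for the others. The causes were not tested. No paired analysis was possible because the replicate numbers of the table cannot be tied to those of the labels. Genes under about 1 FPKM, such as Lrrn4, rest on few fragments.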
